A study of Brachypodium distachyon with 45 samples.

Results

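The leaf transcriptome of droughted KOZ1 was followed from day 4 to day 8 after water was withdrawn. KOZ1 is an inbred line of the grass Brachypodium distachyon, and the sample labels call it highly susceptible to drought. A locus was taken into the description when its FPKM, a fragment count divided by transcript length and by library size, was at least 1 in either drought group. This rule kept 17938 of the 33852 loci in the table. Of these, 15780 were at or above 1 in both drought groups, 1137 at day 4 alone and 1021 at day 8 alone. The member closest to the limit had 1.001 FPKM in its higher group, and the closest locus left out had 0.999 FPKM.

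The study holds 45 libraries of leaf RNA in 15 groups, from the lines ABR4, ABR8 and KOZ1. Plants were grown with water for 32 days after germination, and the 5 KOZ1 groups are the start of treatment (T0, day 0), the watered and the unwatered plants at day 4 (T1), and the watered and the unwatered plants at day 8 (T2). Each group has 3 libraries, each from a plant of its own, which the authors pooled into 1 value with 95% confidence limits, so that no values of single plants and no depth per library were used here. All 5 groups share the line, the potting compost, the growth chamber and the tissue. The T0 plants are titled controls but labelled as not watered, and 12 ABR8 samples also carry a treatment that goes against their titles. The titles were followed. By the labels, 2 of the 3 libraries of the day 8 drought group and the whole day 4 drought group come from lane 4, whereas 1 library of the day 8 drought group comes from lane 2 of another flow cell. All 3 T0 libraries and 1 of the 3 watered libraries of day 4 come from lane 3, and the other watered KOZ1 libraries of days 4 and 8 from lane 4. The part of lanes and flow cells in the results was not tested.

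Of 5 floral MADS-box genes, which pattern the flower, 0 reached 1 FPKM in either drought group, and 3 of them were listed at 0 in every KOZ1 group. The locus described as having ribulose-bisphosphate carboxylase activity, Bradi5g04080, was present in all KOZ1 groups at between 85.3 and 438 FPKM. The other mesophyll markers could not be matched by name. In such bulk leaf samples fewer cells of a type and less RNA per cell cannot be told apart.

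Water deficit in plants is relayed largely by abscisic acid, a hormone made from carotenoids. In the core pathway known from Arabidopsis and rice, the hormone binds receptors that block clade A protein phosphatases 2C, and this releases SnRK2 kinases, which activate bZIP transcription factors of the ABF type. Genes for the phosphatases and for hormone breakdown are themselves induced by abscisic acid, which gives the pathway negative feedback. Leaves under drought also close their stomata, slow their growth and photosynthesis and remodel their cell walls, where laccases and peroxidases join lignin monomers and expansins and xyloglucan endotransglucosylases loosen the wall.

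From day 4 to day 8 of drought, 1189 members rose and 1381 fell by at least 2-fold at an adjusted p of at most 0.05, which is 6.63% and 7.70% of the members. Over all 26548 loci tested the shares called were 4.48% higher and 5.2% lower, and 1 of these calls lay outside the members. In either direction 9.68% were called. The test was a two-sided z-test on the logarithm of FPKM, with the standard error taken from the upper confidence limit and the Benjamini-Hochberg adjustment made over all loci tested. Changes of at least 16-fold were called for 145 members upwards and 95 downwards. The median log2 change of all members was 0.07, and the quartiles of those above 0 in both groups were -0.53 and 0.59. Of the 1021 loci that reached 1 FPKM at day 8 alone 207 were called higher, and of the 1137 at day 4 alone 181 were called lower. The rule for members fixed the direction of these calls, so the direction is not a result. The split between directions depends on the scaling of the groups, since the FPKM values summed to 722827 at day 4 and 479128 at day 8 of drought. With each group scaled to the same sum, every log2 change rose by 0.59, 3614 members were called higher and 715 lower, and the share of higher among called members moved from 46.3% to 83.5%. Scaling to a common median or upper quartile shifted the log2 changes by -0.06. Scaling to the same sum outside the 100 highest loci at T0, chosen after seeing the data, shifted them by 0.07. It gave 1328 members higher and 1255 lower, a share of higher of 51.4%.

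**Figure D1:**
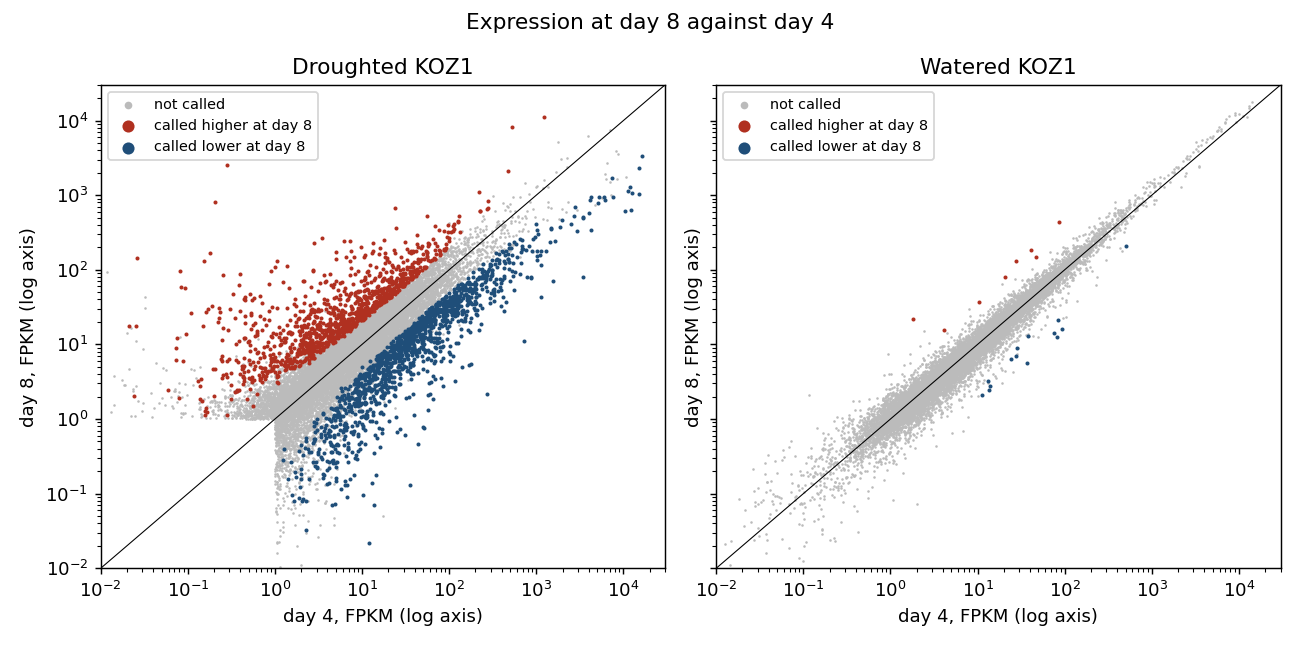
FPKM at day 8 (vertical, log axis) against day 4 (horizontal, log axis) for each member in droughted (left) and watered (right) KOZ1, with loci above 0 in both groups shown and called loci in colour. In droughted plants 1189 members were called higher and 1381 lower, and in watered plants 9 and 14, counting also those listed at 0 in 1 group.

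In the watered plants over the same days 9 members were called higher and 14 lower, against 0.0385% and 0.054% of the 25947 loci tested and 0.0925% in either direction. Their median log2 change was 0.00, and the quartiles of those above 0 in both groups were -0.23 and 0.21. The difference between the droughted and the watered change was then tested directly in the 17782 members above 0 in all 4 groups. It was called upwards for 424 members and downwards for 675, or 2.38% and 3.80%, where 1.85% and 2.93% of the 23035 loci tested were called and 4.78% in either direction. Of the 1189 members that rose under drought, 1151 could be tested for the difference and 400 were called. Of the 1381 that fell, 1372 could be tested and 652 were called. The drought values that chose these members are also part of the difference, so these calls are not independent of the choice. The same holds for genes named below by their drought change. The median standard error was 0.68 for this difference and 0.49 for the drought change, both on the log2 scale.

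Only 8 members were called in both changes. Bradi5g11230, on chromosome 5 from 14933668 to 14935917, had 2.84 FPKM at day 4 and 35.9 FPKM at day 8 of drought, a rise of 3.66 ± 0.47 (SE) on the log2 scale. In watered plants it fell from 13.1 to 3.27 FPKM. Its neighbour Bradi5g11240 fell in both, from 20.5 to 0.936 FPKM under drought and from 28.4 to 9.02 FPKM with water. Bradi2g57680 fell from 45.8 to 12.7 FPKM under drought and rose from 20.9 to 80.4 FPKM with water, and Bradi3g15040 fell from 62.6 to 27.8 FPKM and rose from 40.6 to 183 FPKM. Bradi3g02990, a short locus from 1912935 to 1913060 on chromosome 3, was listed at 0 at day 8 of drought and at day 4 with water. The files and the reference annotate no product for these loci, which were picked because they were called in both changes.

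Transcripts that were most abundant before the treatment lost the most FPKM. The 100 loci with the highest FPKM at T0, a group used in neither change, held 47.8% of all FPKM at day 4 of drought and 24.98% at day 8, while they held 45.0% and 48.1% in the watered groups. Their sum fell by 225616 FPKM, and the whole sum fell by 243698 FPKM. The latter is a net amount. The sum of T0 ranks 101 to 1000 also fell by 42741 FPKM, while members ranked 5001 to 10000 gained 9671 FPKM and those ranked lower 15833 FPKM. Of these 100 loci, 52 were called lower and 2 higher, and 0 were called in the watered plants. Their median log2 change was -2.04. The median was -0.54 for T0 ranks 101 to 1000, -0.06 for ranks 1001 to 5000, 0.08 for ranks 5001 to 10000 and 0.21 for the members ranked lower. In the same order the share called lower went from 52% through 34.9%, 15.3% and 5.56% to 1.60%. In the watered plants the medians of these classes lay between -0.05 and 0.28. Of the loci ranked below 10000 only the 7940 that reached 1 FPKM in a drought group were counted. This took in any that did so at day 8 alone or at day 4 alone. The gain and the median of this class thus rest in part on the rule for members. Whether total RNA per leaf fell cannot be told from FPKM.

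**Figure D2:**
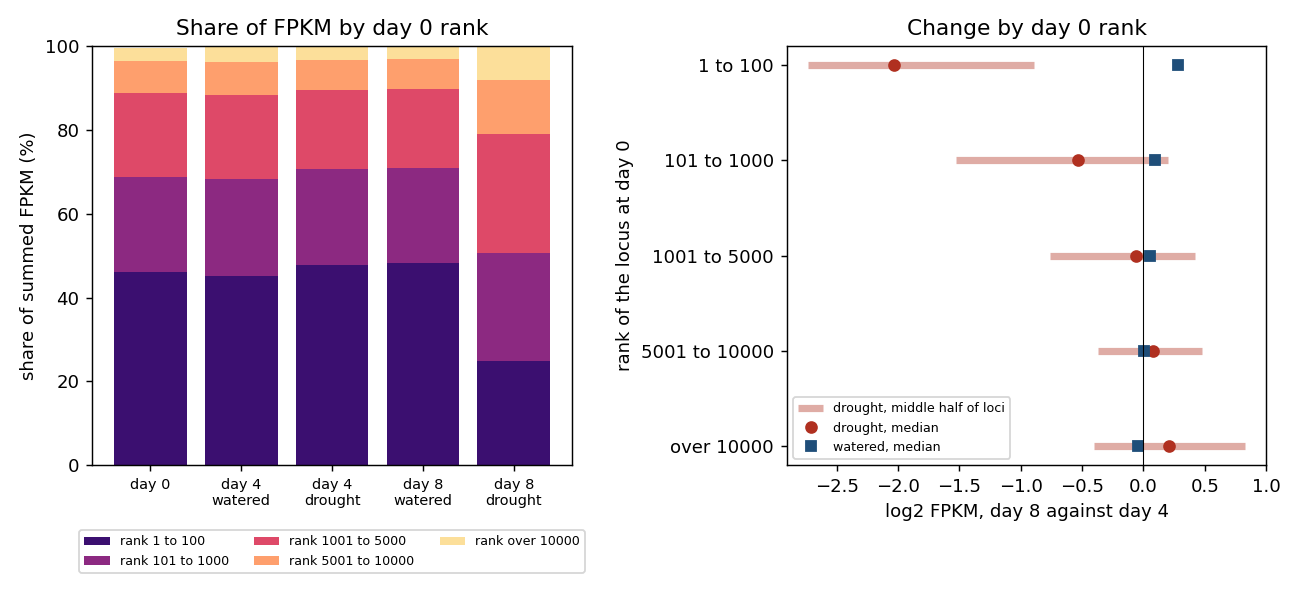
Left, share of the summed FPKM (per cent) held by members in 5 classes of T0 rank in each KOZ1 group. Right, median log2 change from day 4 to day 8 in each class for droughted (circles, with a bar between the quartiles) and watered (squares) plants; the 100 highest loci held 47.8% at day 4 and 24.98% at day 8 of drought, with a median change of -2.04.

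Of the 3 members with the largest loss in FPKM among those at 1 FPKM or more in both drought groups, Bradi2g16290 (chromosome 2, 14360127 to 14361220) had 15766 FPKM at T0, 14010.4 and 17710.3 in watered plants at days 4 and 8, and 16279.6 and 3305 in droughted plants. Bradi2g44856 fell from 14971 to 1049 FPKM under drought, a log2 change of -3.84 ± 0.91 (SE), and had 12993 and 14839 FPKM with water. Bradi4g37210 fell from 15171 to 2328 FPKM and had 12992 and 15560.0 FPKM with water. In all 3 the day 8 drought value alone was low, and the limits of the other 4 groups overlapped one another. For Bradi2g16290 the upper limit at day 8 of drought, 5460 FPKM, reached the lower limit of the watered plants at day 4, 5272 FPKM. In the same set the largest gains in FPKM were those of Bradi4g44410, from 1215 to 11152, of Bradi4g25750, from 525 to 8108, and of Bradi4g24650, from 479 to 2123. Bradi4g44410 became the most abundant transcript of the day 8 drought group, although its limits there ran from 686 to 21618 FPKM. Those of Bradi4g25750 ran from 0 to 16420.4 FPKM, so that for both loci they took in the values of all other KOZ1 groups, and those of Bradi4g24650 from 1097 to 3150 FPKM. No product is annotated for these 6 loci in the sources used here. Among members under 1 FPKM at day 4, Bradi1g37410 (chromosome 1, 33400971 to 33402000), picked after its values were seen, had 0.0319 FPKM at T0, 0.239 and 0.757 in watered plants, and 0.279 and 2563 FPKM at days 4 and 8 of drought.

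On the log2 scale the largest rises among all members at 1 FPKM or more in both groups were those of Bradi2g22410 (chromosome 2, 19913088 to 19923965), from 1.06 to 132 FPKM, of Bradi1g16630, from 1.01 to 107 FPKM, and of Bradi1g55610 (chromosome 1, 54306552 to 54307332), from 2.80 to 230.2 FPKM. Bradi1g55610 rose by 6.36 ± 0.66 (SE), with 7.22 and 3.24 FPKM in the watered groups, whereas the change of 6.96 in Bradi2g22410 carried an error of 1.63. For Bradi2g22410 the difference from the watered change was not called. Bradi1g16630 had limits of 0 and 2.85 FPKM at day 4 of drought, and its log2 change carried an error of 1.38. In the watered groups it had 15.1 FPKM at day 4 and 4.00 FPKM at day 8. The largest falls were those of Bradi3g37680 (chromosome 3, 39949425 to 39952893), from 271 to 2.17 FPKM, of Bradi5g21531 (chromosome 5, 24285574 to 24286456), from 728 to 11.11 FPKM, and of Bradi2g14940, from 56.6 to 1.34 FPKM. Bradi5g21531 stayed between 582 and 728 FPKM in the other 4 groups, while Bradi3g37680 was already lower in the watered plants at day 8, at 135.3 FPKM, than at day 4, at 301 FPKM. In the same set the largest differences from the watered change also took in Bradi3g50220, which went from 1.39 to 111 FPKM, and Bradi1g06695, which went from 169 to 5.26 FPKM.

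Most called members left the range of the other 4 KOZ1 groups. The call itself set day 8 against day 4 of drought, a group among these 4. The counts for called members are thus in part fixed by that choice. At day 8 of drought 1171 of the 1189 risen members lay above all 4 other groups, and for 693 of them the lower limit was above all 4 upper limits. Among the 1381 fallen members 1343 lay below all other groups, 792 of them without overlap of the limits. Over all members 41.4% lay above and 32.7% below the other groups, and 746 and 810 did so without overlap. Day 4 of drought was close to the start of the experiment. Against T0, 11 members were called higher and 26 lower at day 4 of drought, where 0.147% of the loci tested were called, and 77 and 219 at day 4 with water, where 1.21% were called. Day 4 of drought against day 4 with water gave 40 higher and 64 lower, against 0.459% of the loci tested. With T0 in place of day 4 as the base, an alternative chosen after seeing the data, 1059 members were called higher and 1406 lower at day 8 of drought. Day 8 with water against T0 gave 154 higher and 344 lower, against 1.93% of the loci tested, so that the watered plants too had more calls from this base than from day 4.

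The named members come from genes that RefSeq names and from genes that the study described. The study picked the latter among its drought-responsive genes of ABR4 and ABR8 and in clusters of genes higher in ABR8. Those clusters were drawn from genes that the study called changed by drought in any line, most of them in KOZ1 at day 8. The day 8 drought values of KOZ1 thus took part in the choice, which bears most on the wall lists. The counts are therefore not independent evidence of a direction. In all 189 such genes matched 1 locus each and 166 of these were members, of which 31 rose, 45 fell and 90 were not called. Among all members 6.63% rose and 7.70% fell, and the list counts below are to be read beside these shares. Counts below are over all loci in the adjustment, and each log2 change is that from day 4 to day 8 of drought with its standard error.

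Of the abscisic acid genes 6 of 11 rose and 0 fell, with a median log2 change of 1.42 and of 0.05 in watered plants. The drought median was 0.88 over the members at 1 FPKM or more in both drought groups and 2.01 under the scaling to the same sum. Bradi1g13760 (chromosome 1, 10607058 to 10609607), described as 9-cis-epoxycarotenoid dioxygenase-like, belongs to the enzymes that carry out the rate-limiting step of abscisic acid synthesis. It had 0.191 FPKM at T0, 0.0261 and 0.212 in watered plants, and 0.22 and 19.7 FPKM at days 4 and 8 of drought, a rise of 6.48 ± 0.92 (adjusted p of 2.86e-10). It was thus close to 0 in 4 groups and high in 1. The difference from the watered change was not called (adjusted p of 0.73), where the watered values near 0 leave a standard error of 2.36. Bradi3g52660 (chromosome 3, 53295417 to 53298252), a cytochrome P450 described as abscisic acid 8'-hydroxylase, breaks the hormone down. It was between 27.7 and 34.2 FPKM in the other 4 groups and reached 127 FPKM, with limits of 84.1 and 169, at day 8 of drought, a rise of 4.30-fold that also differed from the watered change (adjusted p of 0.0076).

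The phosphatase genes did not move together. PP2C30 (Bradi1g66920, chromosome 1, 65890697 to 65892634), which in rice belongs to the clade A phosphatases that restrain abscisic acid signalling, had 4.19 FPKM at T0, 2.59 and 1.83 in watered plants, and 2.14 and 70.5 FPKM at days 4 and 8 of drought. The limits at day 8 of drought ran from 46.7 to 94.2 FPKM and met those of no other group. Its rise was 32.9-fold, or 5.04 ± 0.53 on the log2 scale (adjusted p of 2.04e-18). PP2C50 (Bradi2g18510) rose from 5.56 to 40.8 FPKM, by 2.88 ± 0.42, and was at 7.36 FPKM in watered plants at day 8. PP2C53 (Bradi2g14420) was at 1.54 and 1.28 FPKM in the drought groups and was not called. Both rises differed from the watered change.

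Among the SnRK2 kinases, the targets of these phosphatases, SAPK6 (Bradi3g45460) rose from 16.7 to 52.5 FPKM, by 1.65 ± 0.36, and the other 4 groups lay between 16.7 and 20.3 FPKM. SAPK1, SAPK2, SAPK8 and SAPK10 were not called, with log2 changes between -0.50 and 0.33. For SAPK1, the most abundant of them, the 95% interval of the change was -1.18 to 0.19. ABF2 (Bradi3g38200), a bZIP factor that in Arabidopsis binds abscisic acid response elements, rose from 4.62 to 12.4 FPKM, by 1.42 ± 0.44 (adjusted p of 0.018). Its difference from the watered change, 1.12 ± 0.64, was not called.

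**Figure D3:**
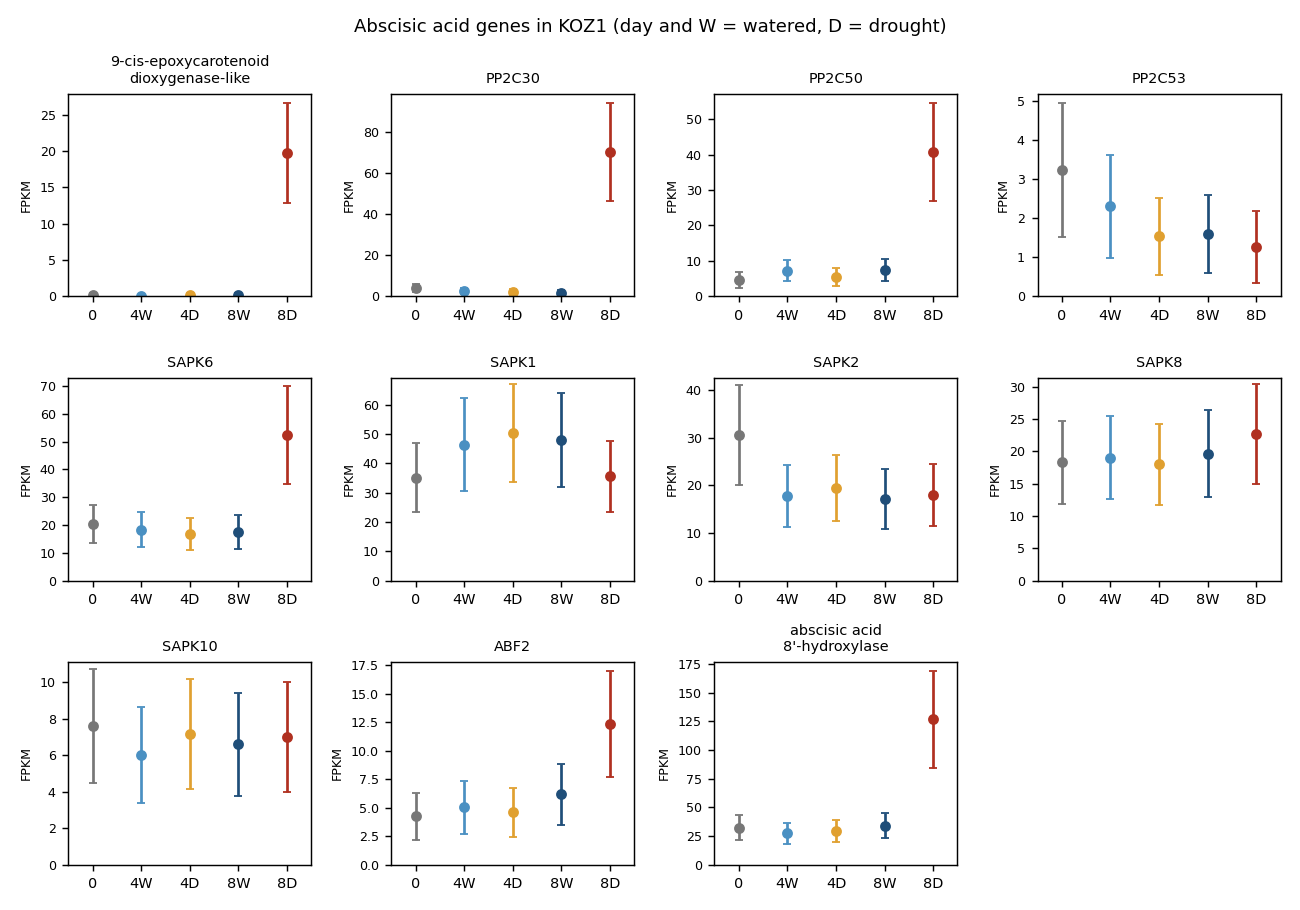
FPKM of the 11 abscisic acid genes in the 5 KOZ1 groups, with bars for the authors' 95% limits and each vertical axis starting at 0. PP2C30 stood at 70.5 FPKM at day 8 of drought and between 1.83 and 4.19 in the other groups, while SAPK1, SAPK2, SAPK8, SAPK10 and PP2C53 were not called.

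Calcium sensor and MAP kinase genes, which relay many stress signals by phosphorylation, were mostly not called. Of 13 members 1 fell and 0 rose, with a median log2 change of 0.07, and 4 were called higher with FPKM scaled to the same sum. The share that fell is near the 7.70% of all members. CIPK15 (Bradi4g25880), a kinase that in rice links oxygen shortage to sugar supply, fell from 31.3 to 9.62 FPKM and was at 30.6 FPKM in watered plants at day 8. The difference of CIPK15 from the watered change was not called. CIPK2 was the most abundant of the list at day 8, with 38.7 and 71.4 FPKM under drought, and was called only with FPKM scaled to the same sum. MPK3 had 14.1 and 22.8 FPKM and MPK6 31.3 and 20.7 FPKM, and neither was called. In the transcription factor list 7 of 10 were members. One of them, the ERF gene Bradi5g21250, rose from 6.94 to 19.6 FPKM (adjusted p of 0.03), and 0 fell. Its difference from the watered change was not called. The list median of -0.58 became 0.02 under the scaling to the same sum and 0.10 over the members at 1 FPKM or more in both drought groups. The WRKY gene Bradi2g44270 had 38.9 FPKM at day 4 and 12.95 at day 8 with water, and 26.5 and 13.2 under drought, so that both series ended at about the same level. CBF4 and CBF7, relatives of cold-response activators, were at 0.0385 and 0.0414 FPKM at day 8 of drought.

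Of 4 jasmonate members 2 fell and 0 rose. Bradi5g00810 (chromosome 5, 781942 to 783671), described as 12-oxophytodienoic acid reductase, had 85.0 FPKM at T0, 52.3 and 32.3 in watered plants, and 50.9 and 0.768 FPKM at days 4 and 8 of drought. It fell by 6.05 ± 0.74 on the log2 scale, the largest fall of a listed gene with at least 50 FPKM at day 4, and the fall differed from the watered change by -5.35 ± 0.82 (adjusted p of 3.02e-08). Bradi3g08160, whose Arabidopsis relative makes allene oxide for jasmonate synthesis, fell from 9.32 to 2.41 FPKM. This fall was no longer called with FPKM scaled to the same sum, and it was not called different from the watered change. The JAZ repressor gene Bradi1g72590, which shares a locus with another identifier, was at 3.06 and 4.68 FPKM and was not called.

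Among 15 photosynthesis, pigment and plastid genes 5 fell and 3 rose, with a median log2 change of -0.66. With FPKM scaled to the same sum the median was -0.06 and the counts were 4 and 4. Bradi5g26230, whose Arabidopsis relative is the protochlorophyllide reductase PORA of chlorophyll synthesis, was between 100.4 and 180.4 FPKM in the other groups and at 14.8 FPKM at day 8 of drought, a log2 change of -3.56 ± 0.49. Bradi3g11060, related to an Arabidopsis glutamyl-tRNA reductase at the entry to tetrapyrrole synthesis, fell from 32.1 to 7.62 FPKM and was at 28.4 FPKM with water. The plastid acyl carrier protein genes Bradi4g05860 and Bradi4g18170, which carry growing fatty acids, fell from 125 to 37.1 FPKM and from 37.2 to 8.51 FPKM. The iron storage gene Bradi4g44870, a ferritin relative at a locus that holds 2 identifiers, fell from 1045 to 306 FPKM and had 456 and 588 FPKM with water. Its fall was not called under the scaling to the same sum. For Bradi4g44870 and Bradi4g05860 the difference from the watered change was not called.

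The carboxylase gene Bradi5g04080 behaved otherwise. It had 139.8 FPKM at T0, 85.3 and 438 in watered plants and 425 and 231 FPKM at days 4 and 8 of drought. The watered rise of 2.36 ± 0.39 was called, the drought change of -0.88 ± 0.50 was not, and these changes differed by -3.24 (adjusted p of 4.51e-05). Of the genes that rose, Bradi1g44480, described as the alpha subunit of pyruvate dehydrogenase E1, which feeds acetyl-CoA into metabolism, was between 0.314 and 0.631 FPKM in the other groups and at 42.2 FPKM at day 8 of drought, a rise of 6.19 ± 0.74. Bradi2g19010, a DnaJ-type chaperone gene, had 0.222 FPKM at T0, 17.8 and 5.56 with water and 0.553 and 18.4 FPKM under drought. Its day 8 drought value was thus matched by the watered group of day 4, and the rise of 5.05 ± 0.85 started from a lower drought than watered value. The reductase gene Bradi2g09777 of the chlorophyll side chain rose from 0.445 to 3.22 FPKM.

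In the list of laccase, plastocyanin-like and lignin monomer genes 5 of 11 rose and 2 fell. Bradi1g11240 (chromosome 1, 8285783 to 8292522), a copper-binding gene with a plastocyanin-like domain, had 10.8 FPKM at T0, 9.04 and 5.41 in watered plants, and 6.22 and 245 FPKM at days 4 and 8 of drought. The rise was 39.4-fold, or 5.30 ± 0.52 (adjusted p of 4.19e-21), and the limits at day 8, 163 to 327, stood far above those of the other groups. The laccase genes Bradi2g54690 and Bradi1g66720 rose from 6.16 to 51.4 FPKM and from 3.36 to 28.5 FPKM, by 3.06 ± 0.40 and 3.09 ± 0.46, and both differed from the watered change. The other laccase gene, Bradi2g23350, went the other way, from 4.29 to 0.59 FPKM. It had 9.65 FPKM at T0 and was at 0.12 and listed at 0 in the watered groups.

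The genes CAD5 and Bradi4g29780, of the cinnamyl alcohol dehydrogenase family that makes monomers of lignin, moved in opposite directions. The part of each in making lignin was not tested. CAD5 (Bradi3g06480, chromosome 3, 4690873 to 4694917) had 16.9 FPKM at T0, 62.2 and 23.6 with water and 14.1 and 52.4 FPKM at days 4 and 8 of drought. It rose by 1.90 ± 0.36 under drought and had a watered change of -1.40 ± 0.41 that was not called, and its day 8 drought value stayed within the range of the other groups. Bradi4g29780 (chromosome 4, 35303401 to 35308567) was between 30.2 and 38.8 FPKM in the other groups and fell to 2.14 FPKM, with limits of 0.353 and 3.93, a log2 change of -4.18 ± 0.66. The acyltransferase gene pmt, which in Brachypodium adds p-coumarate to monolignols, was at 19.6 and 31.9 FPKM and was not called.

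Of 15 peroxidase members 3 rose and 2 fell, with a median log2 change of -1.67 over all 15, which was -0.15 over the members at 1 FPKM or more in both drought groups and -0.96 with a pseudocount of 1. The peroxidases that rose all lie on chromosome 2, as does Bradi2g20850, which fell. Bradi2g12204 (10574949 to 10577704) rose from 2.37 to 24.3 FPKM by 3.36 ± 0.56 and its neighbour Bradi2g12216 (10579733 to 10582676) from 2.64 to 16.4 FPKM by 2.64 ± 0.55. The former differed from the watered change, and the latter was not called different. Reads shared between neighbouring copies could not be checked here. Bradi2g13190 rose from 5.34 to 24.5 FPKM and was at 10.6 FPKM at T0 and at 0.654 in watered plants at day 8. Bradi1g17840 fell from 8.20 to 2.41 FPKM and Bradi2g20850 from 2.70 to 0.268 FPKM. Bradi2g20850 was also low with water, at 0.818 and 0.304 FPKM, and its difference from the watered change was not called. Under the scaling to the same sum 0 peroxidases were called lower and 4 higher. Bradi1g17840 was highest with water, at 29.5 and 25.3 FPKM. The most abundant of the list, Bradi1g65820, described as having cytochrome-c peroxidase activity, was at 151 and 164 FPKM in the drought groups and was not called.

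**Figure D4:**
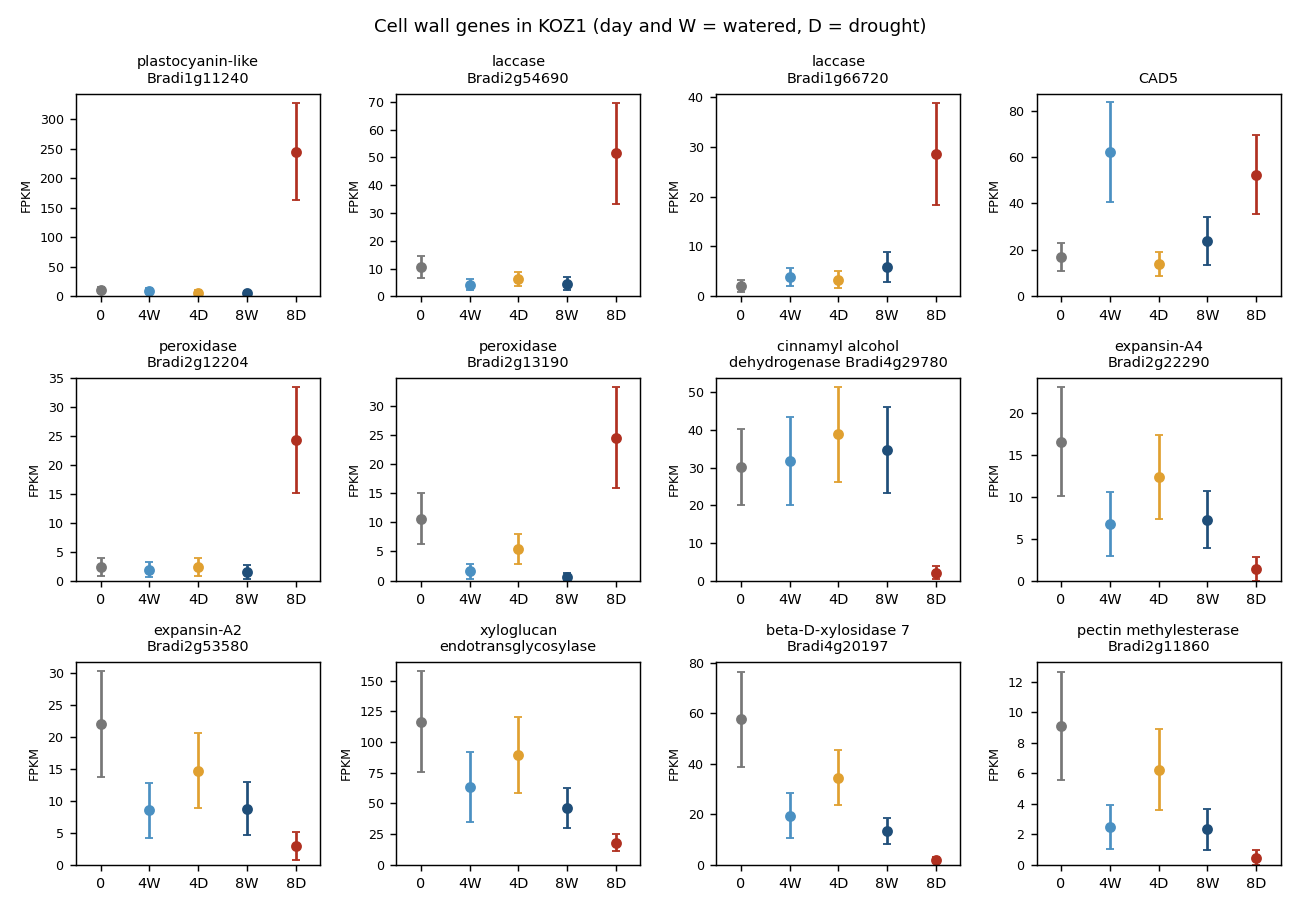
FPKM of 12 cell wall genes in the 5 KOZ1 groups, with bars for the authors' 95% limits and each vertical axis starting at 0. The first 6 rose from day 4 to day 8 of drought and the last 6 fell, and at day 8 of drought the plastocyanin-like gene reached 245 FPKM and the xylosidase gene Bradi4g20197 was at 1.98 FPKM. The genes were picked, and the laccase and peroxidase genes that fell are not shown.

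Of 6 xyloglucan endotransglucosylase and expansin genes, which loosen the wall, 4 were called lower and 0 higher, with a median log2 change of -2.34 against -0.04 with water. Under the scaling to the same sum 3 were called, without Bradi1g27867, and 2 of the 6 differed from the watered change. Bradi3g18590 (chromosome 3, 17168440 to 17171803), a xyloglucan endotransglycosylase of family GH16, was the most abundant, with 117 FPKM at T0, 63.4 and 46.7 with water and 89.7 and 18.2 FPKM under drought. The expansin-A4 gene Bradi2g22290 (chromosome 2, 19821758 to 19823699) fell from 12.4 to 1.37 FPKM by 3.17 ± 0.80, and the expansin-A2 gene Bradi2g53580 from 14.7 to 2.89 FPKM by 2.35 ± 0.63. The first differed from the watered change (adjusted p of 0.019) and the second did not pass (adjusted p of 0.062). For all 6 genes the T0 value was the highest of the 5 groups and the day 8 drought value the lowest, except for Bradi1g33840, whose watered values of 1.09 and 1.23 FPKM lay below its day 8 drought value.

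Of 5 pectin members 4 were called lower and 0 higher, and 2 lower under the scaling to the same sum. Only 1 of them, Bradi2g11860, was called different from the watered change. The median log2 change was -3.74, but -1.44 with a pseudocount of 1 and -1.49 over the members at 1 FPKM or more in both drought groups. The pectin methylesterase Bradi2g11860, which removes methyl groups from pectin, fell from 6.23 to 0.452 FPKM by 3.79 ± 0.89, and the polygalacturonase Bradi2g18030, which cuts the chain, fell from 16.5 to 1.23 FPKM. The latter also went from 9.84 to 2.75 FPKM with water, a log2 change of -1.84 that was not called, and its drought and watered changes were not called different. The most abundant member, the polygalacturonase Bradi1g76890, fell from 45.9 to 16.3 FPKM, a call lost with FPKM scaled to the same sum, as was that of the galacturonosyltransferase Bradi2g48710. The pectin acetylesterase Bradi1g20270 had 13.99 and 11.7 FPKM and was not called.

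Of 9 members among the other glycoside hydrolases 6 fell and 1 rose, and 4 fell under the scaling to the same sum. The beta-D-xylosidase 7 gene Bradi4g20197 (chromosome 4, 23225803 to 23231966), which trims xylose from wall xylan, had 57.7 FPKM at T0, 19.5 and 13.3 with water and 34.5 and 1.98 FPKM under drought, a log2 change of -4.12 ± 0.54 that differed from the watered change (adjusted p of 3.32e-05). The family GH17 genes Bradi2g60497 and Bradi3g07385, from the beta-glucanases, fell from 4.59 to 0.279 FPKM and from 31.6 to 7.23 FPKM, and the galactosidase-type GH35 gene Bradi1g37450 from 5.64 to 1.06 FPKM. With water Bradi2g60497 also went from 4.46 to 1.63 FPKM, and Bradi1g37450 was at 1.91 and 2.08 FPKM. For neither gene was the difference from the watered change called. The 1 rise was that of the GH19 gene Bradi5g14430, a chitinase-type family, listed at 0 at day 4 of drought and at 2.75 FPKM at day 8. It had 3.56 and 2.28 FPKM in the watered groups, so that its day 8 drought value was within their range.

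Among 17 members of wall polysaccharide synthesis and secondary wall NAC genes 2 rose and 4 fell, with a median log2 change of -0.32 that became 0.27 under the scaling to the same sum. The sugar nucleotide genes differed in direction. The UDP-glucose dehydrogenase gene Bradi1g08120, whose product leads to xylan precursors, rose from 32.5 to 104 FPKM by 1.67 ± 0.37, while the UDP-glucuronate epimerase genes Bradi4g34430 and Bradi3g53830, whose product leads to pectin precursors, fell from 11.118 to 1.02 FPKM and from 13.9 to 2.77 FPKM. The latter falls differed from the watered change and the rise did not pass. Bradi1g08120 had 68.7 FPKM at T0, with limits overlapping those of day 8 of drought. Bradi2g45320, described as a trichome birefringence-like acyl-esterase, fell from 9.02 to 0.588 FPKM. The NAC gene SWN7 (Bradi1g50057), from the family that switches on secondary wall formation, rose from 3.33 to 10.3 FPKM, and SWN5 and SWN6 were not called. The mixed-linkage glucan synthase CslF6 gene Bradi3g16307 was at 27.6 and 24.2 FPKM and was not called.

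Of 13 sugar members 5 rose and 2 fell, with a median log2 change of 0.49. The counts were 5 and 3 with a common median and 7 and 1 under the scaling to the same sum. The SWEET gene Bradi3g10270 (chromosome 3, 8457282 to 8460230), from a family of sugar exporters, was listed at 0 in watered plants at day 4 and was at most 0.71 FPKM in the other groups, and it reached 28.2 FPKM at day 8 of drought, a rise of 6.13 ± 0.99. A further SWEET gene, Bradi1g62890, rose from 2.81 to 20.1 FPKM and the transporter genes Bradi1g23440 and Bradi3g46650 from 0.537 to 26.5 FPKM and from 3.03 to 23.3 FPKM. Bradi3g46650 also had 2.39 and 6.61 FPKM with water, and its difference of 1.48 ± 0.72 was not called. The myo-inositol oxygenase gene Bradi1g37870, which opens a second route to UDP-glucuronate, rose from 2.78 to 15.5 FPKM. It had 8.74 FPKM at T0, with limits overlapping those of day 8 of drought. The difference of Bradi1g37870 from the watered change was not called. The trehalose phosphatase gene Bradi3g50810 fell from 10.2 to 0.756 FPKM by 3.75 ± 0.73, and the starch debranching gene Bradi5g00540 fell from 8.22 to 3.33 FPKM. The monosaccharide-sensing protein 2 gene Bradi3g08690 had 22.7 and 32.0 FPKM and was called only under the scaling to the same sum.

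Of 8 brassinosteroid, gibberellin and auxin members, hormones of growth, 3 fell and 0 rose, but 2 fell and 1 rose under the scaling to the same sum. The gibberellin 20-oxidase gene Bradi1g00950, a late step of gibberellin synthesis, fell from 8.30 to 1.18 FPKM by 2.82 ± 0.71, with 9.96 and 5.86 FPKM in watered plants. The P450 gene Bradi1g59680 fell from 2.30 to 0.0328 FPKM (adjusted p of 0.038). The SAUR gene Bradi1g51490, of an auxin-responsive family, fell from 7.07 to 1.60 FPKM at an adjusted p of 0.0499, a call lost under the scaling to the same sum. It was lower still, at 1.21 and 0.743 FPKM, with water. None of the 3 differed from the watered change at the threshold of 0.05.

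The wax and fatty acid list had 2 higher and 1 lower of 6, and its median log2 change of -0.05 became 0.54 under the scaling to the same sum. Bradi1g75740, related to the Arabidopsis alkane hydroxylases of wax synthesis, rose from 6.33 to 33.8 FPKM by 2.42 ± 0.41, and Bradi3g28450, whose Arabidopsis relative is CER1 of wax alkane synthesis, rose from 0.707 to 4.33 FPKM. Bradi3g35310, of the GMC oxidoreductases, fell from 4.14 to 0.592 FPKM and was at 0.915 and 0.724 FPKM with water. Bradi1g75740 also had 3.70 and 9.13 FPKM with water, and 0 of the 6 were called different from the watered change.

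In the list of nitrogen, nucleotide and metal genes 5 of 10 fell and 1 rose. Bradi4g29720 (chromosome 4, 35181737 to 35187308), described as a ferrous iron transporter and related to the Arabidopsis vacuolar iron importer VIT1, had 37.6 FPKM at T0, 20.7 and 37.7 with water and 64.7 and 3.75 FPKM under drought. It was the highest of the 5 groups at day 4 of drought and the lowest at day 8, a log2 change of -4.11 ± 0.45 (adjusted p of 9.92e-17). The yellow stripe-like metal transporter gene YSL9 (Bradi5g17210) fell from 23.7 to 6.71 FPKM and was between 20.1 and 21.5 FPKM in the other groups. NDPK3 (Bradi4g05300), a nucleoside diphosphate kinase, fell from 33.9 to 7.16 FPKM, and NDPK4 and NDPK5 were not called. NDPK3 also went from 36.7 to 21.7 FPKM with water, and its difference from the watered change was not called. The gene that rose was Bradi4g43860, described as a deoxymugineic-acid dioxygenase, from 4.45 to 14.8 FPKM. Deoxymugineic acid is an iron carrier that grasses secrete. The ferric-chelate reductase gene Bradi5g16740 had 97.2 and 117 FPKM and was not called.

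Of 14 other P450, oxygenase and redox members 2 rose and 4 fell, but 3 rose and 2 fell under the scaling to the same sum. The P450 gene Bradi4g39240 (chromosome 4, 43812129 to 43814319) had 2.06 FPKM at T0, 6.57 and 1.44 with water and 0.458 and 23.8 FPKM under drought. Its difference from the watered change, 7.89 ± 0.97 (adjusted p of 1.69e-12), was the largest of the listed genes above 0 in all 4 groups. The P450 gene Bradi2g33670 fell from 6.72 to 0.131 FPKM and the disulfide oxidoreductase gene Bradi4g11320 from 6.86 to 0.396 FPKM. The ubiquitin genes UBQ4 and UBQ10, which are used as steady references in many plant studies, had 618 and 512 FPKM and 440.4 and 628 FPKM in the drought groups and were not called.

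**Figure D5:**
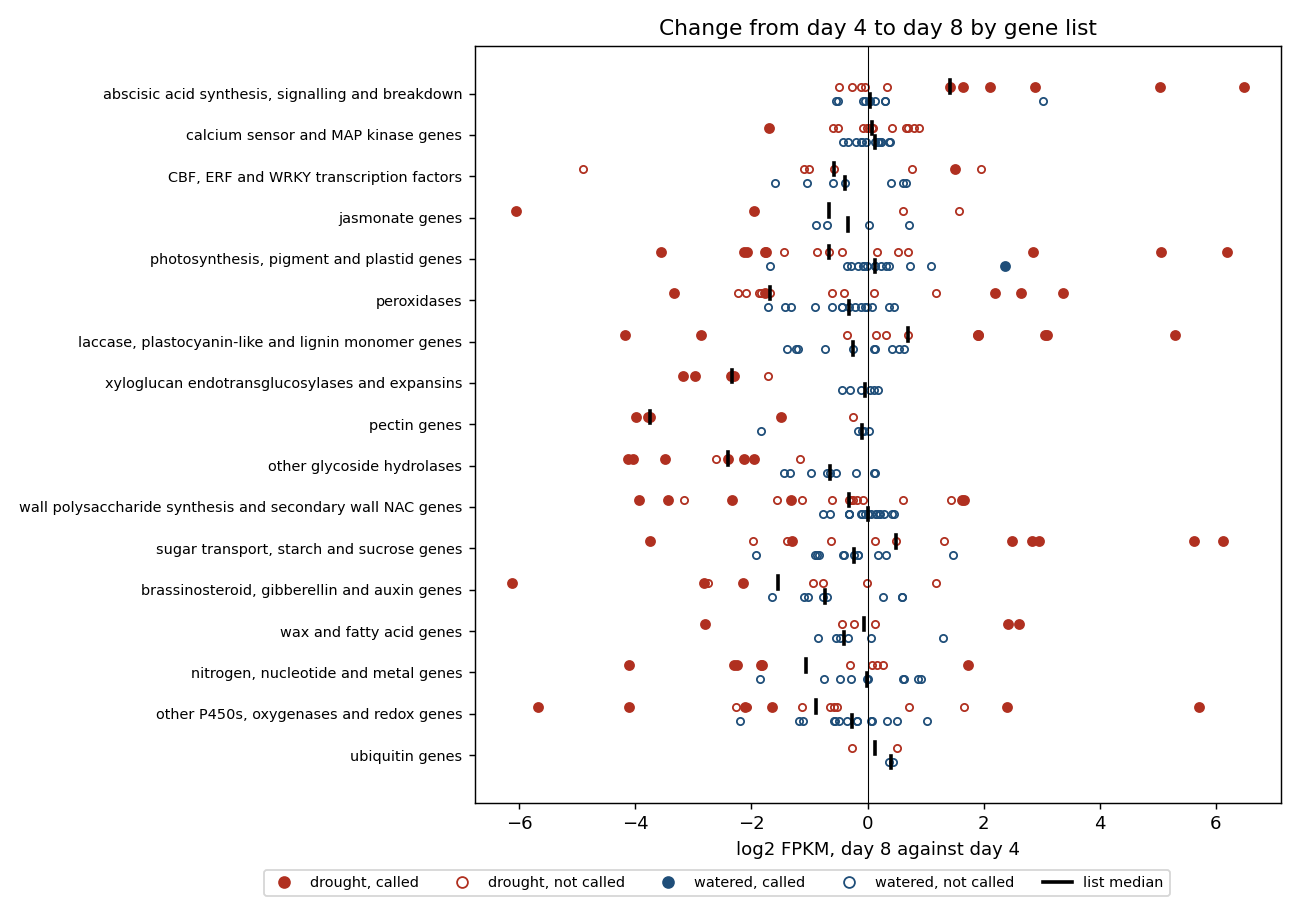
Log2 change from day 4 to day 8 (horizontal) of each member of 17 gene lists in droughted (upper points) and watered (lower points) plants, with filled points for called members, open points for the rest and a bar for the list median; changes from or to 0 are not drawn. Abscisic acid genes had a median of 1.42 under drought (0.88 over those at 1 FPKM or more in both drought groups) and pectin genes one of -3.74 (-1.49), and 1 listed gene was called in watered plants.

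Called members were spread over all 5 chromosomes. The share that rose was between 5.47% on chromosome 5 and 7.34% on chromosome 2, and the share that fell between 7.14% on chromosome 2 and 8.72% on chromosome 5. Of 11631 members paired with a protein-coding RefSeq gene 8.15% rose and 8.43% fell, of 542 paired with a long non-coding RNA 2.95% and 3.87%, and of 136 paired with a pseudogene 0.735% and 11.03%. Of 5614 members without a RefSeq pair 3.99% rose and 6.45% fell. These shares were not tested against each other. At most 3 neighbouring members along a chromosome were called the same way. On chromosome 1 one such run of falls joined the gibberellin 20-oxidase Bradi1g00950 with Bradi1g00940 and Bradi1g00960, from 646179 to 676116.

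For some of these genes the day 8 drought values of the other lines may be set beside those of KOZ1. PP2C30 was at 13.8 FPKM in ABR4 and 3.05 in ABR8 against 70.5 in KOZ1, and the plastocyanin-like gene Bradi1g11240 at 23.6 and 1.29 against 245. The watered plants of day 8 had 3.26, 3.93 and 1.83 FPKM of PP2C30 and 9.82, 2.18 and 5.41 of Bradi1g11240 in ABR4, ABR8 and KOZ1. Among the genes that fell, the expansin-A4 gene Bradi2g22290 was at 10.1 FPKM in ABR4, 157 in ABR8 and 1.37 in KOZ1 under drought, and at 16.6, 172 and 7.27 FPKM with water, so that the lines also stood apart without drought. The abundant locus Bradi2g44856 was at 11898, 14635 and 1049 FPKM under drought and at 14498, 12170.1 and 14839 with water. Some ABR8 labels go against the titles that were followed here. These values are set side by side without a test.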

How the data were processed

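Read trimming (Trim Galore 0.4.1), mapping (TopHat2 2.1.1, Bowtie2 2.2.9) and quantification (Cuffdiff, Cufflinks 2.2.1) were done by the authors on assembly v3.0 and annotation v3.1. The deposited unit is FPKM for each locus in each group of 3 libraries, with 95% limits and the status OK throughout. The depth of each library, which the study tabulates, was not used here, so the limits alone set the precision, and no test over single libraries could be made. Strand was not stated, so reads of overlapping or antisense genes and of close copies may be shared.

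The standard error was the distance from FPKM to the upper limit divided by 1.96. Changes were tested by a z-test on ln FPKM (on the FPKM difference where 1 group was 0), with Benjamini-Hochberg adjustment over all loci tested, and called at 0.05 and 2-fold. Since p-values rest on the authors' model of the spread, they carry no replicate check. Medians count changes from or to 0 as extremes. Scripts were tested on simulated data. Python 3.11.15, numpy 2.4.6, pandas 2.3.3, scipy 1.17.1 and matplotlib 3.10.9 were used.

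Starts count from 1. Loci were paired with RefSeq genes of the same assembly by at least 50% reciprocal overlap, 1 to 1, which paired 19699 loci. RefSeq gave symbols but no products, so descriptions are those of the study, found at 1 locus for 139 of 140 genes. The members and lists were chosen with earlier results of these data known. Named were, first, among called annotated members at 1 FPKM or more in both groups, the 12 largest rises and falls and the 6 largest in FPKM. From each list with a call came its highest member, called or not, and its 3 most changed called members, and from the difference the 5 largest in each direction among annotated members, both also with members under 1 FPKM in 1 group. Last came the 3 largest of each kind among all members at 1 FPKM or more in both groups. Other genes of a list were named after their values were seen.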

Additional observations from a re-analysis of the deposited data

Results flagged for a closer look

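The change from day 4 to day 8 differed between droughted and watered KOZ1, by the z-test of the difference with Benjamini-Hochberg adjustment, for 424 members upwards and 675 downwards. Of the named loci, 41 were among them. Each is given by its difference of the log2 changes, drought minus watered.

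In the hormone and plastid lists the difference was 5.54 for PP2C30, 2.85 for PP2C50, 1.80 for Bradi3g52660, 5.45 for Bradi1g44480, 6.73 for Bradi2g19010, -5.35 for Bradi5g00810 and -3.88 for Bradi5g26230. In the lignin and peroxidase lists it was 6.04 for Bradi1g11240, 2.95 for Bradi2g54690, 2.47 for Bradi1g66720, 3.29 for CAD5, 3.67 for Bradi2g12204, 3.51 for Bradi2g13190 and -4.31 for Bradi4g29780. Among the other wall genes it was -1.86 for Bradi3g18590, -3.28 for Bradi2g22290, -3.69 for Bradi2g11860, -3.57 for Bradi4g20197, -3.72 for Bradi4g34430, -2.39 for Bradi3g53830 and -3.61 for Bradi2g45320.

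In the sugar, metal and redox lists it was 6.04 for Bradi1g23440, 3.07 for Bradi1g62890, -2.89 for Bradi3g50810, -4.97 for Bradi4g29720, 7.89 for Bradi4g39240, -5.12 for Bradi2g33670 and -3.54 for Bradi4g11320. Among loci known by identifier alone it was 8.66 for Bradi1g16630, 7.52 for Bradi1g55610, 6.35 for Bradi3g50220, 4.41 for Bradi4g25750, 3.62 for Bradi4g44410 and 1.91 for Bradi4g24650. For Bradi4g25750 and Bradi4g44410 the limits at day 8 of drought took in the values of all other KOZ1 groups. Downwards it was -6.08 for Bradi5g21531, -5.98 for Bradi1g06695, -5.93 for Bradi2g14940, -5.81 for Bradi3g37680, -4.03 for Bradi2g44856, -2.96 for Bradi4g37210 and -2.64 for Bradi2g16290.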

How the results depend on the processing

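Counts below are of members called higher and lower. In droughted plants they were 1189 and 1381, and moved by more than 1.5 times in a direction with the unadjusted p (1801 higher), a 4-fold threshold (560 and 641) and scaling to the same sum (3614 and 715). In watered plants 9 and 14 became 77 and 155 with the unadjusted p, 5 and 8 at 4-fold, 40 and 82 where limits that do not overlap were asked for, 1 and 3 with the test on the FPKM difference, and 37 lower with scaling to the same sum. Scaling to the same sum outside the 100 highest loci at T0, chosen after seeing the data, gave 23 lower. For the difference, 424 and 675 became 1097 and 1606 with the unadjusted p and 1541 and 282 with scaling to the same sum, where the share of higher calls moved from 38.6% to 84.5%. The other counts stayed within 1.5 times of these under the alternatives run. Of 76 named loci with a finite change, 8 lost and 3 gained the call with scaling to the same sum, and 0 did under the 4 other settings; the cause was not tested. No named log2 change that was called reversed. No paired analysis was possible because the values were pooled by group, and no replicate could be left out for the same reason.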
